A study of Mus musculus with 15 samples.

Results

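Klotho, the 4 FGF receptors and one of their ligands were followed across podocyte fractions from young and aged mouse kidneys. The 6 genes were Kl, Fgfr1, Fgfr2, Fgfr3, Fgfr4 and Fgf1, picked by name out of the 46078 genes of the count table, and all 6 passed the filter on low counts in every comparison. All mice were male C57BL/6J. Young mice were 4 months old and had no injections. Aged mice were 21 months old and were injected intraperitoneally each week with 12 mg/kg of antibody, either anti-PD-1 (clone RMP1-14, the aged aPD1ab group) or its isotype control (clone 2A3, the aged IgG2a group). The methods gave 8 weeks of injections, while the titles of the aPD1ab samples gave 47 days. The anti-PD-1 antibody blocks PD-1, an inhibitory receptor best known from T cells. Cells were pulled from digested cortex with magnetic beads by antibodies to nephrin, so each library is a bead-enriched fraction and not a pure cell type. The labels listed 15 samples, 5 per group, and 13 libraries were used: 5 young, 4 aged IgG2a and 4 aged aPD1ab. The groups of the libraries rest on numbers in the column headings that the study's own plot placed in a group, and this reading of a plot could be wrong for a library. The fractions came from individual mice, but which mouse gave which library could not be matched to the sample titles.

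Klotho is a membrane protein made mainly in the distal tubule of the kidney, with less in the proximal tubule, and its shed form circulates. In the membrane it joins an FGF receptor, most often FGFR1, to form the high-affinity receptor for FGF23, the bone hormone that lowers phosphate uptake and active vitamin D. FGF receptors are tyrosine kinases that also bind paracrine FGFs with heparan sulfate, and Fgf1 is a ligand that can bind all 4 receptors. Mice that lack klotho show features of early ageing with high phosphate.

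The promoter windows of the genes whose levels differed from young, or that serve as a contrast, are shown first. RefSeq windows (GRCm38.p6, 250 bases before the start of transcription to 50 bases after) were found for 4 of the 6 genes, with a pair of starts for Fgfr3. Fgfr1 and Fgf1 had no window and are named only. The capitals mark GC boxes, searched as GGGCGG on both strands, so that the other strand reads CCGCCC, with adjoining matches allowed to touch. Kl lies at chr5:150952357-150952656 on the plus strand, the first start of Fgfr3 at chr5:33721474-33721773 on the plus strand, Fgfr4 at chr13:55152568-55152867 on the plus strand and Fgfr2 at chr7:130266759-130267058 on the minus strand.
Kl: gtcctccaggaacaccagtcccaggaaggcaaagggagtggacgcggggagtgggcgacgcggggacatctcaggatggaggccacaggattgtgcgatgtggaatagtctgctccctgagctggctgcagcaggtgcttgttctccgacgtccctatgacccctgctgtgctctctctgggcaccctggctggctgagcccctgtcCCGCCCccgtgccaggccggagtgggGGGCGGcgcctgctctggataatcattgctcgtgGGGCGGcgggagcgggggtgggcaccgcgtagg
Fgfr3: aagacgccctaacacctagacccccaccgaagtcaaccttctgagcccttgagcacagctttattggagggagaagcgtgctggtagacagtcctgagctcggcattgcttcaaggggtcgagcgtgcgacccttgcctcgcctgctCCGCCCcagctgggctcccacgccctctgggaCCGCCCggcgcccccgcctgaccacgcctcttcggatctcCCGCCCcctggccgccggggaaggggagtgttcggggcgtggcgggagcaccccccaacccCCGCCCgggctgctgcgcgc
Fgfr4: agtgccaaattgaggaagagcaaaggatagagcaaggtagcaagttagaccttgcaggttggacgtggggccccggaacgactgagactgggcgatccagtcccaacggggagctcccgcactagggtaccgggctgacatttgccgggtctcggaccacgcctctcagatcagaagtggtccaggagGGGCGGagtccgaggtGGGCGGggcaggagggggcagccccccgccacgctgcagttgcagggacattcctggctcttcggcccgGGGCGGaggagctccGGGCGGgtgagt
Fgfr2: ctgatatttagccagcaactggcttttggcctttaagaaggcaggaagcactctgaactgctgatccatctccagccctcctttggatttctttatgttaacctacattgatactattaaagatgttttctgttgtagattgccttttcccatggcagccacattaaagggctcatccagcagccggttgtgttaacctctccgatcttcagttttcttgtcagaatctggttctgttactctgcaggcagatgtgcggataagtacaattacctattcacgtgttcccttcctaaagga

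The window of Kl held 3 GC boxes and that of Fgfr4 held 4. The windows at the starts of Fgfr3 held 4 and 2. The window of Fgfr2 held none. That window lay inside the annotated span of this minus-strand gene, not at its upper end at 133123350. Over all 32851 windows of the same length, 35.7% held at least 1. GC content was 67.3% for Kl, 65.3% for Fgfr4, 69.7% and 73.0% for Fgfr3 and 43.7% for Fgfr2, beside a median of 52.7%. CpG pairs numbered 19 in Kl, 20 in Fgfr4, 26 and 30 in Fgfr3 and 4 in Fgfr2, beside a median of 7. CCAAT was found in the first Fgfr3 window alone of these 5 windows (37.4% of all windows), and TATAAA in none of them (13.6% of all windows). A match is a run of letters, and no binding was measured.

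The libraries held 19912969 to 32717100 counts in genes. Aged IgG2a replicate 1 stood farthest from its group, and aged aPD1ab replicate 2 also lay apart. On the first principal component of log2 CPM (read counts scaled to library size with TMM factors), which carried 40.67% of the variance, aged IgG2a replicate 1 lay at -16.4, while the other IgG2a libraries lay between 71.6 and 84.2 and the young ones between -41.4 and -24.6. Aged aPD1ab replicate 2 lay at -64.9, while the other aPD1ab libraries lay between -13.9 and 10.9. The group of IgG2a replicate 1 was read from the plot like that of the others, and a wrong assignment there cannot be told apart from a mouse that differs. The results of the 6 genes and the counts of the lists with IgG2a against young are therefore given with and without it. The label podocyte fraction was checked against markers. Nphs1, which encodes nephrin itself, was at 64.6 ± 15.98 CPM in young (SD, n = 5), 8.81 ± 7.18 in aged IgG2a (n = 4) and 27.1 ± 16.7 in aged aPD1ab (n = 4), and the distal tubule cotransporter Slc12a3 was at 2747, 3193 and 3122 CPM in the same order. The fractions thus carried much tubule RNA, and in bulk RNA fewer cells of a type and less RNA per cell cannot be told apart.

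Levels of different genes were compared as TPM (a library-scaled count divided by exon length), within a library only. Kl was the most abundant of the 6 genes and Fgf1 the second in all 13 libraries. In young mice Kl was at 273 ± 83.9 TPM and Fgf1 at 49.0 ± 6.01 TPM (SD, n = 5). Fgfr1 at 14.5 ± 2.85, Fgfr4 at 13.4 ± 2.57 and Fgfr3 at 11.4 ± 1.51 TPM lay within their spread of each other, and Fgfr2 was lowest at 7.44 ± 2.30 TPM. Fgfr1 exceeded Fgfr4 in 2 of 5 young libraries.

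The receptors kept unequal shares of their summed TPM. In aged IgG2a libraries Fgfr1 was the highest receptor in 4 of 4, with 44.5% ± 3.64 of the receptor TPM (SD, n = 4), against 30.9% ± 4.16 in young (n = 5). Its share was 40.7% to 47.6% with IgG2a and 26.3% to 36.3% in young, with no overlap. The mean level of Fgfr1 was not higher with IgG2a, at 44.1 ± 11.4 CPM against 56.0 ± 6.14 CPM in young (SD). Fgfr4 gave 29.0% ± 5.75 in young, 15.5% ± 5.89 with IgG2a and 33.8% ± 10.6 with aPD1ab (n = 4). The highest IgG2a share of Fgfr4, 23.8% in replicate 1, lay above the lowest young share of 19.4%. The share of Fgfr3 was 22.4% to 25.9% in young, 16.2% to 19.7% with IgG2a and 17.0% to 23.6% with aPD1ab. Fgfr2 exceeded Fgfr3 in all 4 IgG2a libraries and in none of the 5 young ones, though by 19.7% against 19.6% in IgG2a replicate 4. These shares were not tested, and they use the same counts as the comparisons that follow.

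**Figure D1:**
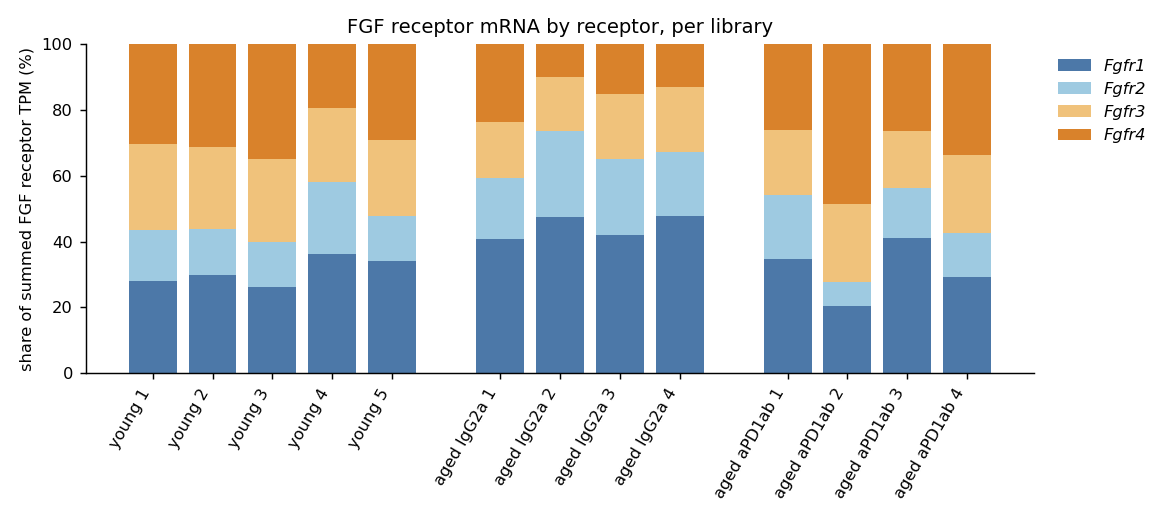
Bars show, for each of the 13 libraries, the percent of the summed TPM of the 4 FGF receptors that came from each receptor. Fgfr1 took 40.7% to 47.6% in the aged IgG2a libraries and 26.3% to 36.3% in the young ones, and Fgfr4 reached 48.7% in aged aPD1ab replicate 2.

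Kl (ENSMUSG00000058488, GRCm38 chr5:150952607-150993817, plus strand) was lower in both aged groups than in young. It was at 843, 894, 1144, 1371 and 752 CPM in young replicates 1 to 5. It was at 764, 267, 317 and 396 CPM in aged IgG2a replicates 1 to 4, and at 597, 513, 457 and 538 CPM in aged aPD1ab replicates 1 to 4. All 4 aPD1ab libraries lay below every young library, while IgG2a replicate 1 lay inside the young range and the other 3 IgG2a libraries lay below the aPD1ab range. The log2 fold change of aged IgG2a against young was -1.15 (SE 0.32, edgeR adjusted p = 0.038) and that of aged aPD1ab against young -0.92 (SE 0.20, edgeR adjusted p = 0.0105). The 2 comparisons share the 5 young libraries. The fall with aPD1ab passed the threshold in all 14 refits tried, at a fold of 1.89, with log2 fold changes of -1.01 to -0.78 and adjusted p up to 0.0432, whereas the fall with IgG2a passed in 6 of 14, with log2 fold changes of -1.56 (without IgG2a replicate 1, edgeR adjusted p = 0.000271) to -0.98 and adjusted p up to 0.112. Between the aged groups, aPD1ab against IgG2a, the log2 fold change was 0.27 (95% interval -0.45 to 0.99, edgeR adjusted p = 0.602). With IgG2a replicate 1 left out it was 0.66 (SE 0.18, edgeR adjusted p = 0.028).

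**Figure D2:**
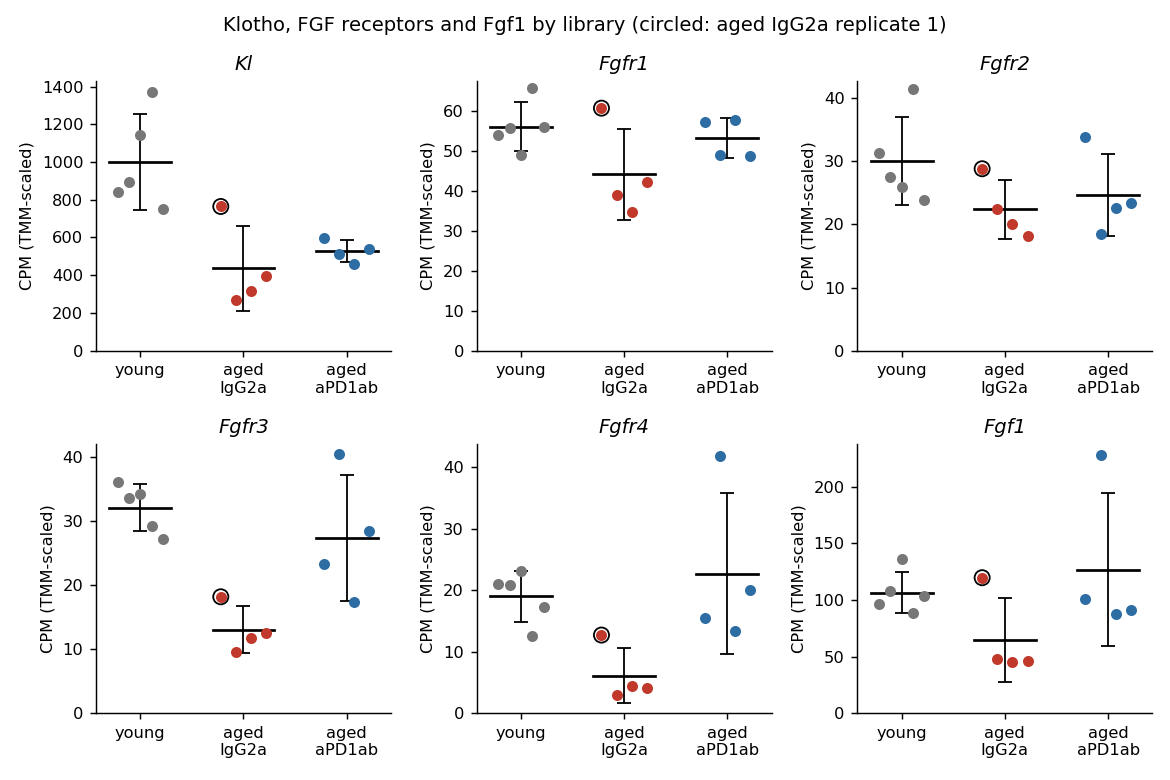
CPM of each of the 6 genes by group on axes from 0, with points for libraries, bars for the mean and its SD, and a ring around aged IgG2a replicate 1. The 4 aPD1ab libraries lay between 457 and 597 CPM for Kl, under all young libraries, and aged IgG2a replicate 1 was the highest of its group for all 6 genes.

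Fgfr3 (ENSMUSG00000054252, GRCm38 chr5:33721674-33737068, plus strand), a receptor known for restraining bone growth, was the only one of the 6 genes whose difference between IgG2a and young was called in every refit. It was at 36.2, 33.6, 34.3, 29.4 and 27.3 CPM in young replicates 1 to 5. It was at 18.2, 9.61, 11.8 and 12.6 CPM in aged IgG2a replicates 1 to 4, and at 23.4, 40.6, 17.4 and 28.5 CPM in aged aPD1ab replicates 1 to 4. All IgG2a libraries lay below all young ones, and aPD1ab libraries reached from the IgG2a range to above the young one. Fgfr3 fell 2.36-fold with IgG2a against young (log2 fold change -1.24, SE 0.17, edgeR adjusted p = 0.00476), and this call held in 14 of 14 refits with adjusted p up to 0.0203 (-1.46 without IgG2a replicate 1). For aPD1ab against IgG2a the log2 fold change was 1.07 (SE 0.29, edgeR adjusted p = 0.109), and without IgG2a replicate 1 it was 1.26 (SE 0.29, edgeR adjusted p = 0.0167). For aPD1ab against young it was -0.21 (95% interval -0.68 to 0.26, edgeR adjusted p = 0.496). Of the exon bases of Fgfr3, 13.9% overlap G630022F23Rik on the opposite strand, and whether counting used strand was not given, so part of its counts could belong to that gene.

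Fgfr4 (ENSMUSG00000005320, GRCm38 chr13:55152640-55168759, plus strand), a receptor also well known from liver bile acid control, had the widest differences of the 6 genes in both comparisons with IgG2a. It was at 21.1, 20.9, 23.1, 12.6 and 17.2 CPM in young replicates 1 to 5. It was at 12.7, 2.99, 4.47 and 4.15 CPM in aged IgG2a replicates 1 to 4, and at 15.5, 41.8, 13.4 and 20.1 CPM in aged aPD1ab replicates 1 to 4. IgG2a replicate 1 lay just above the lowest young library, and the other 3 IgG2a libraries, with 60 to 83 counts each, lay below all libraries of the other groups. Fgfr4 fell 2.97-fold with IgG2a against young (log2 fold change -1.57, SE 0.39, edgeR adjusted p = 0.0271), a call made in 8 of 14 refits. For aPD1ab against IgG2a the log2 fold change was 1.90 (SE 0.53, edgeR adjusted p = 0.109). Leaving out IgG2a replicate 1, the pair of values became -2.25 (edgeR adjusted p = 3.74e-05) and 2.55 (edgeR adjusted p = 0.00858). For aPD1ab against young it was 0.27 (95% interval -0.43 to 0.97, edgeR adjusted p = 0.569), and this sign turned to -0.20 without aPD1ab replicate 2.

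Fgf1 (ENSMUSG00000036585, GRCm38 chromosome 18 from 38838673 to 38929472, minus strand) is secreted without a signal peptide and binds every FGF receptor. It was at 96.6, 108, 136, 89.0 and 104 CPM in young replicates 1 to 5. It was at 120, 48.3, 45.4 and 45.8 CPM in aged IgG2a replicates 1 to 4, and at 101, 228, 87.6 and 91.1 CPM in aged aPD1ab replicates 1 to 4. IgG2a replicate 1 lay in the young range and aPD1ab replicate 2 far above its group, while the other 3 IgG2a libraries were the 3 lowest of all. The log2 fold change was -0.66 for IgG2a against young (SE 0.29, edgeR adjusted p = 0.128) and 0.98 for aPD1ab against IgG2a (SE 0.43, edgeR adjusted p = 0.178). These were -1.14 (edgeR adjusted p = 8.84e-05) and 1.44 (edgeR adjusted p = 0.0233) without IgG2a replicate 1. For aPD1ab against young the log2 fold change was 0.26 (95% interval -0.35 to 0.88, edgeR adjusted p = 0.528), and it turned to -0.18 without aPD1ab replicate 2.

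Fgfr1 (ENSMUSG00000031565, GRCm38 chr8:25513654-25575718, plus strand), the usual partner of klotho in the FGF23 receptor, had the smallest log2 fold changes of the 6 genes against young. It was at 54.0, 55.6, 48.8, 65.7 and 55.9 CPM in young replicates 1 to 5. It was at 60.6, 39.0, 34.6 and 42.1 CPM in aged IgG2a replicates 1 to 4, and at 57.2, 48.8, 57.6 and 48.7 CPM in aged aPD1ab replicates 1 to 4. The 3 IgG2a libraries other than replicate 1 lay below all libraries of the other groups. The log2 fold change was -0.29 for IgG2a against young (95% interval -0.63 to 0.06, edgeR adjusted p = 0.21), 0.26 for aPD1ab against IgG2a (95% interval -0.13 to 0.64, edgeR adjusted p = 0.338) and -0.07 for aPD1ab against young (95% interval -0.30 to 0.16, edgeR adjusted p = 0.677). Without IgG2a replicate 1 the comparisons that use that group gave -0.48 (edgeR adjusted p = 0.00399) and 0.43 (edgeR adjusted p = 0.0276).

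Fgfr2 (ENSMUSG00000030849, GRCm38 chr7:130162451-133123350, minus strand), a receptor that ureteric bud growth depends on in development, passed the threshold in none of the 3 comparisons with all libraries. It was at 31.4, 27.5, 25.99, 41.5 and 23.8 CPM in young replicates 1 to 5. It was at 28.8, 22.4, 20.04 and 18.2 CPM in aged IgG2a replicates 1 to 4, and at 33.8, 18.5, 22.6 and 23.4 CPM in aged aPD1ab replicates 1 to 4. The ranges of all 3 groups overlapped. The log2 fold change was -0.36 for IgG2a against young (95% interval -0.77 to 0.05, edgeR adjusted p = 0.182), 0.12 for aPD1ab against IgG2a (95% interval -0.34 to 0.58, edgeR adjusted p = 0.723) and -0.28 for aPD1ab against young (95% interval -0.72 to 0.17, edgeR adjusted p = 0.343). Without IgG2a replicate 1 the first was -0.51 (edgeR adjusted p = 0.0336) and the second 0.25 (edgeR adjusted p = 0.36). The annotated gene spans 2960.9 kb and 44 other genes overlap that span, of which Ctbp2, on the same strand, shares 3.04% of the exon bases of Fgfr2.

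Counted together, 3 of the 6 genes were called lower with IgG2a against young by edgeR (Kl, Fgfr3 and Fgfr4), beside 8.38% of the 15953 genes tested. Their median log2 fold change was -0.91, against 0.04 over all genes. With aPD1ab against young 1 of 6 was called lower (Kl), beside 9.97% of 15986 genes. With aPD1ab against IgG2a 0 of 6 were called higher, beside 0.0% of 15530 genes, where edgeR called no gene in either direction and 4341 genes had an unadjusted p under 0.05. DESeq2 called 2068 genes there, limma voom with sample quality weights 6177 and the edgeR fit of all 3 groups together 2863, and these called 2, 5 and 2 of the 6 genes, respectively. Without IgG2a replicate 1, 6 of 6 were lower with IgG2a than in young, beside 23.5% of genes, and 5 of 6, all but Fgfr2, were higher with aPD1ab than with IgG2a, beside 17.1% of genes. Without aPD1ab replicate 2, edgeR again called 0 genes between the aged groups, and 2800 genes had an unadjusted p under 0.05. The calls between the aged groups for these genes thus changed both with IgG2a replicate 1 left out and with the method.

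**Figure D3:**
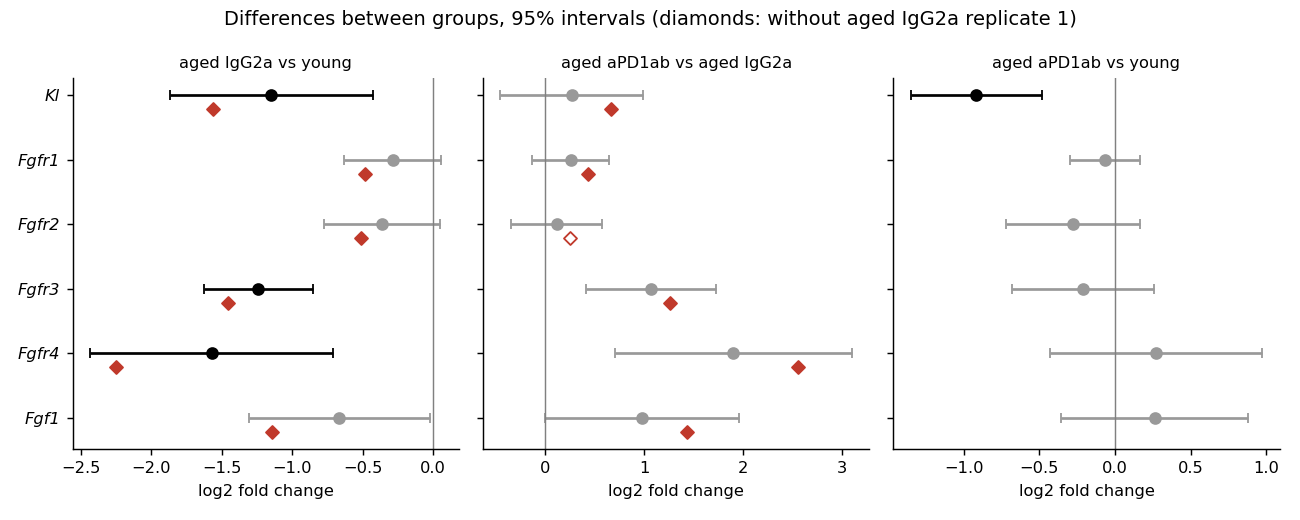
Log2 fold changes of the 6 genes in the 3 comparisons with 95% intervals from edgeR, black where the adjusted p was under 0.05 and grey otherwise. Red diamonds give the value without aged IgG2a replicate 1, filled where the adjusted p was under 0.05, and lie farther from 0 than the circle in each case.

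Proximal tubule markers ran with Fgfr3, Fgfr4 and Fgf1, and less closely with the other members. The summed level of 10 proximal tubule markers was 5060 to 8030 CPM in young, 713 to 1150 in 3 IgG2a libraries, 3780 in IgG2a replicate 1 and 3650 to 11200 with aPD1ab, with the top value in aPD1ab replicate 2. Of those 10 markers 8 were lower with IgG2a than in young, beside 8.38% of all genes, and 0 differed by the test between the aged groups. Without IgG2a replicate 1 all 10 were lower, beside 23.5%. All 10 were then higher with aPD1ab than with IgG2a, beside 17.1%. Over the 13 libraries, as a description, Pearson r of log2 CPM with the summed proximal tubule markers was 0.985 for Fgfr4, 0.957 for Fgfr3, 0.919 for Fgf1, 0.737 for Kl, 0.667 for Fgfr1 and 0.335 for Fgfr2. With the summed level of 5 parietal epithelium markers r was as high, at 0.976 for Fgfr4, 0.958 for Fgfr3 and 0.939 for Fgf1. Most of that parietal sum was Cldn2, at 197 CPM in young, beside 34.2 for Pax8, 9.84 for Cldn1, 1.55 for Ncam1 and 0.81 for Krt19. With IgG2a against young 4 of these 5 had log2 fold changes under 0, and Krt19 was at 1.52. The highest r of Kl with any of the 11 marker lists was 0.78, with mesangial, pericyte and smooth muscle markers. The points share their library, its depth and its mixture of cells. Fgfr3, Fgfr4 and Fgf1 followed one another, with r of 0.947 for Fgfr3 and Fgfr4 and 0.934 for Fgfr4 and Fgf1. What part the tubule content plays in their differences was not tested.

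**Figure D4:**
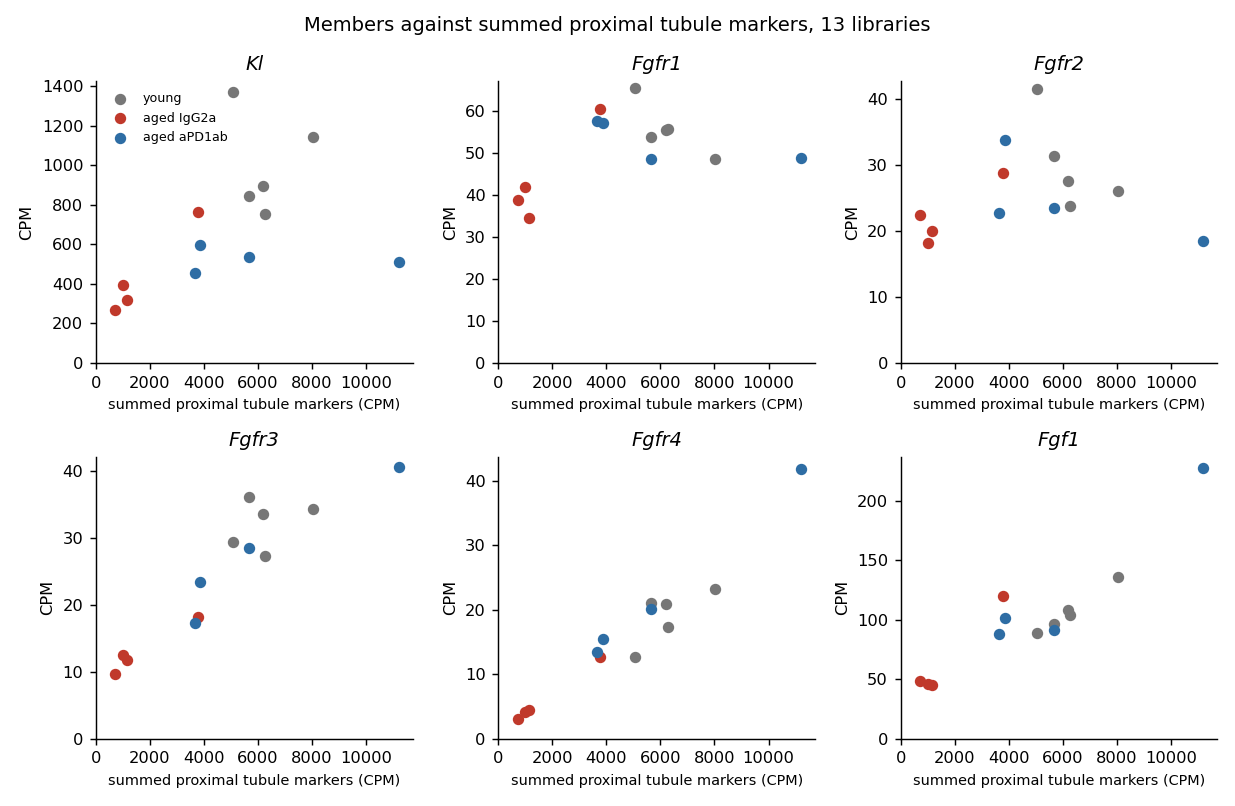
CPM of each of the 6 genes against the summed CPM of 10 proximal tubule markers in the 13 libraries, on linear axes from 0, coloured by group. Fgfr3, Fgfr4 and Fgf1 rise along the marker axis up to aPD1ab replicate 2 at 11200 CPM, while Kl in that library, at 513 CPM, lies below all young libraries.

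Kl and Fgfr2 were set beside the distal segments, where klotho is known to be most abundant. The summed level of 8 distal convoluted and connecting tubule markers was 5860 to 10500 CPM in young, 4430 to 10700 with IgG2a, the top value in replicate 1, and 3670 to 8450 with aPD1ab. Pearson r with that sum over 13 libraries was 0.838 for Fgfr2, 0.704 for Kl and 0.156 for Fgfr4. Of the 8 markers 1 was called lower with IgG2a against young, beside 8.38% of all genes, and 4 without IgG2a replicate 1, beside 23.5%. With aPD1ab against young 2 were called lower and 1 higher, beside 9.97% and 12.4%. Their median log2 fold changes were -0.17 with IgG2a, -0.81 without IgG2a replicate 1 and -0.47 with aPD1ab. The members went different ways, with Slc12a3 at 0.27 (95% interval -0.49 to 1.02) and 0.19 (95% interval -0.40 to 0.79) with IgG2a and aPD1ab, and Klk1, a protease of the connecting tubule, at -0.80 and -0.83. Podocyte markers summed to 881 to 1430 CPM in young, 528 to 726 with IgG2a and 269 to 866 with aPD1ab, the lowest in replicate 2. Of the 9 tested, 7 and 2 were called lower than young, beside 8.38% and 9.97% of all genes (Dpp6, at or near 0 throughout, was not tested). Without IgG2a replicate 1, 7 were again lower with IgG2a, beside 23.5%. Pearson r with that podocyte sum was 0.557 for Kl and 0.03 for Fgfr4. Macrophage markers summed to 4420 to 7310 CPM in young, 5260 to 15900 with IgG2a, the lowest in replicate 1, and 3200 to 11100 with aPD1ab, and 6 of 7 were higher with IgG2a, beside 9.05% of genes called higher. Without IgG2a replicate 1 all 7 of these markers were higher, beside 22.1%. Their r was -0.74 for Kl, -0.851 for Fgfr4 and -0.891 for Fgf1. The part of these cells in the differences was not tested.

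The genes whose levels ran most closely with each member, by r of log2 CPM over 13 libraries among 16330 genes, were Sptbn1 for Kl (r = 0.966), Ttc27 for Fgfr1 (0.957), Adamts16 for Fgfr2 (0.919), Hyal2 for Fgfr3 (0.981), Slc47a1 for Fgfr4 (0.99) and Clptm1 for Fgf1 (0.983). For Fgfr4 the next genes were Fads3, Pecr, Slc19a1 and Slc22a8, and Slc47a1 and Slc22a8 are transporters that proximal tubule cells use to move organic ions. Among the 5 closest to Fgfr1 was Fgfbp1, at r of 0.935, whose protein releases FGFs from the matrix. For Kl the others were Rdx, Ppip5k1, Erc1 and Pigg, with r of 0.96 or more.

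Of 98 genes on 7 lists around klotho and the FGF receptors, 80 were tested between the aged groups. With all libraries edgeR called 0 of them. Of the 80, 25 had an unadjusted edgeR p under 0.05, beside 4341 of all 15530 genes tested. Once IgG2a replicate 1 was left out, 17 were called higher and 12 lower with aPD1ab, when 17.1% and 13.2% of all genes were called. Of the relatives of klotho and the proteases that can shed it, 4 of 5 genes were tested. Klb, the klotho homologue that serves FGF15 and FGF21, had 6 counts at most and none in 7 libraries, where 3 counts would be 0.0917 to 0.151 CPM. Lctl, another family member, was low at 1.63 ± 0.25 CPM in young (SD, n = 5) and fell to 0.36 ± 0.04 with IgG2a (SD, n = 4, log2 fold change -2.10, SE 0.25, edgeR adjusted p = 0.00248). It was at 0.60, 1.63, 0.79 and 3.54 CPM in the aPD1ab libraries, above every IgG2a library, without passing the test (log2 fold change 2.19, edgeR adjusted p = 0.109). Of the sheddases, Adam17 rose with IgG2a against young (log2 fold change 0.59, edgeR adjusted p = 0.0447) and Adam10 fell with aPD1ab against young (log2 fold change -0.57, edgeR adjusted p = 0.00387). Of these 4 genes, 1 was called in each direction with IgG2a against young, beside 9.05% of all genes called higher and 8.38% lower. Without IgG2a replicate 1 these were 2 and 2, beside 22.1% and 23.5%. With aPD1ab against young 1 was called lower and 0 higher, beside 9.97% and 12.4%. Over this list and those that follow, 17 genes named here as called with IgG2a against young were called the same way without IgG2a replicate 1, at 0.96 to 1.43 times the log2 fold change and adjusted p up to 0.0249.

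Most genes of the FGF family other than Fgf1 gave few reads. Of 21 FGF family genes 5 passed the filter (Fgf2, Fgf9, Fgf11, Fgf12 and Fgf13), and 0 were called in any of the 3 comparisons by edgeR. Without IgG2a replicate 1, 1 was higher and 1 lower in each comparison with that group. All genes called higher and lower were then 22.1% and 23.5% against young, and 17.1% and 13.2% between the aged groups. Fgf9, known from the developing kidney, was the highest of these genes at 20.6 ± 4.47 CPM in young (SD, n = 5) and 20.8 ± 3.47 with aPD1ab (SD, n = 4), and it was at 43.8, 13.3, 12.2 and 11.8 CPM in IgG2a replicates 1 to 4. Fgf2 was at 2.76 ± 0.70 CPM in young. Fgf23, the hormone that klotho serves, had 0 counts in all 13 libraries, as had Fgf15.

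Among the 6 receptor partners, 1 was called lower in each comparison with young, in both cases Flrt2, a membrane protein of the FLRT family, some members of which bind FGF receptors. Over all genes, 8.38% were called lower with IgG2a and 9.97% with aPD1ab. Without IgG2a replicate 1, 4 of the 6 were lower with IgG2a against young, beside 23.5% of all genes. The log2 fold change of Flrt2 was -1.59 with IgG2a (SE 0.34, edgeR adjusted p = 0.0187) and -1.55 with aPD1ab (SE 0.29, edgeR adjusted p = 0.00658). Fgfrl1, a receptor that lacks the kinase part, was at 12.2 ± 2.36 CPM in young (SD, n = 5), 6.43 ± 3.12 with IgG2a (SD, n = 4) and 14.1 ± 5.47 with aPD1ab (SD, n = 4), and its log2 fold changes of -0.86 and 1.13 in the comparisons with IgG2a had edgeR adjusted p of 0.0572 and 0.121. With that group's replicate 1 left out they were -1.27 (edgeR adjusted p = 0.000421) and 1.51 (edgeR adjusted p = 0.0138).

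Of 18 heparan sulfate genes, 3 were called higher and 3 lower with IgG2a against young, beside 9.05% and 8.38% of all genes, and 4 and 5 without IgG2a replicate 1, beside 22.1% and 23.5%. Against young, aPD1ab had 1 called higher and 4 lower, beside 12.4% and 9.97%. The syndecans Sdc3 and Sdc1, heparan sulfate core proteins, rose with IgG2a by 1.31 (edgeR adjusted p = 0.0317) and 0.81 (edgeR adjusted p = 0.00514) on the log2 scale. Sulf1, a sulfatase that trims heparan sulfate and weakens FGF binding, fell by 1.59 with IgG2a (edgeR adjusted p = 0.00243) and by 1.45 with aPD1ab (edgeR adjusted p = 0.0095), while its relative Sulf2 rose by 0.43 with IgG2a (edgeR adjusted p = 0.0271) and fell by 0.42 with aPD1ab (edgeR adjusted p = 0.0318), each against young. Gpc4, a glypican core protein, fell by 1.19 with IgG2a (edgeR adjusted p = 0.0298), from 88.8 ± 13.2 CPM in young (SD, n = 5) to 37.6 ± 22.5 (SD, n = 4), and was at 79.1 ± 43.7 CPM with aPD1ab (SD, n = 4, log2 fold change against IgG2a 1.08, edgeR adjusted p = 0.159).

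Of 19 adaptors and kinases downstream of the receptors, 3 were called higher and 1 lower with IgG2a against young, beside 9.05% and 8.38% of all genes, and 5 and 5 without IgG2a replicate 1, beside 22.1% and 23.5%. Against young, 3 were called higher and 5 lower with aPD1ab, beside 12.4% and 9.97%. Grb2, an adaptor that links receptors to Ras, and Mapk3, which encodes the kinase ERK1, rose with IgG2a by 0.65 (edgeR adjusted p = 0.0331) and 0.48 (edgeR adjusted p = 0.0244) on the log2 scale. Cbl, a ubiquitin ligase that marks FGF receptors for breakdown, was at 48.5 ± 7.61 CPM in young (SD, n = 5), 35.6 ± 9.89 with IgG2a (SD, n = 4) and 13.9 ± 4.72 with aPD1ab (SD, n = 4). Its fall with aPD1ab against young was the largest of the list (log2 fold change -1.78, SE 0.22, edgeR adjusted p = 0.00288), and that with IgG2a was -0.38 (edgeR adjusted p = 0.199).

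Of 14 genes that FGF signalling is known to induce, 2 were called lower with IgG2a against young, Etv1 (log2 fold change -1.14, edgeR adjusted p = 0.0229) and Spred2 (-0.37, edgeR adjusted p = 0.0314), and 1 lower with aPD1ab, again Spred2 (-0.30, edgeR adjusted p = 0.0359). Over all genes, 8.38% were called lower with IgG2a and 9.97% with aPD1ab, each against young. Etv1 is a transcription factor of the ETS family and Spred2 an inhibitor of the Ras pathway. Dusp6, a phosphatase that silences ERK, was at 66.5 ± 5.99 CPM in young (SD, n = 5), 87.0 ± 15.8 with IgG2a (SD, n = 4) and 52.8 ± 6.35 with aPD1ab (SD, n = 4), and the test of IgG2a against young missed the threshold (log2 fold change 0.46, edgeR adjusted p = 0.0518). The list's median was 0.15 with IgG2a against young and turned to -0.24 without IgG2a replicate 1. There 3 were called higher and 4 lower, beside 22.1% and 23.5% of all genes. Dusp6 was among the former (log2 fold change 0.55, edgeR adjusted p = 0.00158). With aPD1ab against young the list's median was -0.16.

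A list of 15 phosphate, vitamin D and calcium genes was grouped around klotho and FGF23, and not each of them is a known target. Of these, 5 were called lower and 0 higher with IgG2a against young, beside 8.38% and 9.05% of all genes. Their median log2 fold change was -0.73 against 0.04 over all genes. Without IgG2a replicate 1, 10 were called lower and 1 higher, beside 23.5% and 22.1%, with a median of -1.03. Slc34a1, the main phosphate transporter of the proximal tubule and itself one of the 10 proximal tubule markers, was at 1953 to 3624 CPM in young (median 2593), at 1556, 293, 473 and 506 CPM in IgG2a replicates 1 to 4 and at 1760, 5077, 1641 and 3324 CPM in the aPD1ab libraries. Its log2 fold change was -1.85 with IgG2a against young (SE 0.46, edgeR adjusted p = 0.027) and 2.08 with aPD1ab against IgG2a (SE 0.60, edgeR adjusted p = 0.109). Cyp24a1, the enzyme that breaks down active vitamin D, fell by 2.83 with IgG2a (SE 0.66, edgeR adjusted p = 0.0238), and Pth1r, the parathyroid hormone receptor, by 1.16 (SE 0.25, edgeR adjusted p = 0.0198). The other 2 were Slc34a3 (-1.63, edgeR adjusted p = 0.0373) and Slc9a3r1 (-0.50, edgeR adjusted p = 0.046), a phosphate transporter and its scaffold, named after their values were seen.

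Between the aged groups 0 of these 15 genes were called by edgeR. Without IgG2a replicate 1, 6 were called higher with aPD1ab and 0 lower, beside 17.1% and 13.2% of all genes. With aPD1ab against young 3 were called lower and 1 higher, beside 9.97% and 12.4%. These 3 and 1 were again named after their values were seen. Trpv5, the calcium channel that klotho is known to hold at the membrane, fell (log2 fold change -1.08, SE 0.27, edgeR adjusted p = 0.0204), and so did Slc8a1, the sodium and calcium exchanger of the distal tubule (log2 fold change -1.45, SE 0.40, edgeR adjusted p = 0.0268). Vdr, the vitamin D receptor, fell by 0.55 log2 units (edgeR adjusted p = 0.0223), and the phosphate transporter Slc20a1 rose by 0.50 (edgeR adjusted p = 0.016). Calb1, the calcium carrier of the same segment, was at -0.90 without passing the test (edgeR adjusted p = 0.0787). Trpv5 and Calb1 are also among the distal convoluted and connecting tubule markers counted above, so the same values enter both lists. Slc34a1 differed from young by 0.17 with aPD1ab (95% interval -0.58 to 0.93).

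**Figure D5:**
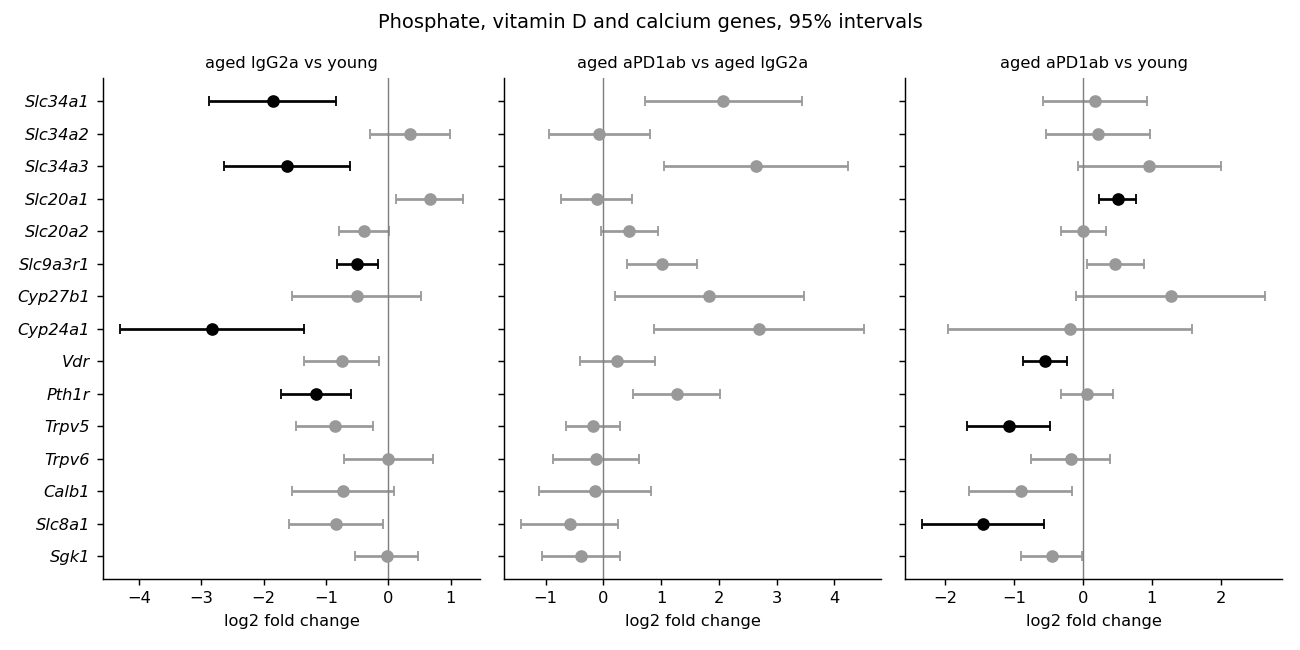
Log2 fold changes with 95% intervals of the 15 phosphate, vitamin D and calcium genes in the 3 comparisons, black where the edgeR adjusted p was under 0.05. With IgG2a against young 5 genes were lower, including Slc34a1 and Pth1r, and with aPD1ab against young Vdr, Trpv5 and Slc8a1 were lower and Slc20a1 higher.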

How the data were processed

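RNA-seq libraries of podocyte fractions from mouse kidney cortex were analysed from the deposited table of raw counts per gene. The authors made these counts with HISAT2 and featureCounts on mm10 (GRCm38), per the submitters' processing notes. Versions, the annotation release and the strand setting were not given in the sources used here. Of 15 columns, 13 were tied to a group through the study's plot of its libraries and 2 columns were not used. Replicates were numbered in column order and carry no pairing. The study sequenced fractions of individual mice, so the libraries were taken as separate animals, although columns could not be matched to named mice. Gene symbols and positions came from GENCODE M21, which held 45229 of 46078 identifiers.

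The edgeR quasi-likelihood test was run on 2 groups at a time (edgeR 4.0.16, R 4.3.3, TMM factors, robust dispersion, filterByExpr), with Benjamini-Hochberg adjustment over all genes tested and a threshold of 0.05. Standard errors were the log2 fold change divided by the square root of F, and intervals were 95%. CPM used TMM factors, and log2 CPM a prior count of 2. TPM was computed from the counts and the union of exon lengths. With 19912969 to 32717100 counts per library, 3 counts were taken as the limit of detection, which covers counting error only. Alternatives were RLE size factors, no filter, DESeq2 1.42.0, limma voom with sample quality weights (limma 3.58.1), 1 fit of all 3 groups, an added 2-fold limit, and leaving out each replicate. The scripts were tested on simulated data.

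The 6 genes, the 7 pathway lists (98 genes), the 11 marker lists (76 genes) and the fit were chosen with earlier results of these data known. Named pathway genes were, per list, up to 3 with the highest TPM and up to 3 with the smallest p in a comparison, from which the text draws, and others are said to be chosen later. Marker lists that the report does not describe are counted in the closing section.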

Additional observations from a re-analysis of the deposited data

Results flagged for a closer look

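Of 99 gene and group pairs looked at for 1 library far from the rest of its group (groups of 4 or 5), 11 were flagged, 3 of them among the 6 genes. The rule is set to flag about 1 in 20 by chance for normally spread values. Most flags fell on aged IgG2a replicate 1, so they are not independent. Fgfr4 was at 12.7 CPM in aged IgG2a replicate 1, with the others at 2.99 to 4.47. Fgf1 was at 120 CPM in the same library, with the others at 45.4 to 48.3, and at 228 CPM in aged aPD1ab replicate 2, with the others at 87.6 to 101.

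Among the pathway genes, aged IgG2a replicate 1 was low for Adam10 (65.7 CPM) and Grb2 (78.3 CPM). It was high for Gpc4 (71.3 CPM), Slc34a1 (1560 CPM), Pth1r (176 CPM) and Vdr (238 CPM). Gpc4 was also high in aged aPD1ab replicate 2 (145 CPM), and Slc8a1 was high in young replicate 4 (297 CPM, with the others at 98 to 140).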

How the results depend on the processing

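No paired analysis was possible because the labels number no replicates and the columns could not be tied to single samples, so the numbers used here follow column order only. Fgfr3 with IgG2a against young and Kl with aPD1ab against young were called in all 14 refits. The number of the 6 genes called with IgG2a against young was 3, 6 with limma voom, and 1 to 6 with 1 replicate left out. With aPD1ab against IgG2a it was 0, 2 with DESeq2, 2 in the fit of all 3 groups, 5 with limma voom, and 0 to 5 with 1 replicate left out. With aPD1ab against young it was 1, and 0 with the 2-fold limit added. Over all genes the calls with IgG2a against young were 2780, 4225 with DESeq2, 7447 with limma voom, 1353 with the 2-fold limit and 553 to 7397 with 1 replicate left out, the highest without IgG2a replicate 1. With aPD1ab against IgG2a they were 0, 2068 with DESeq2, 6177 with limma voom, 2863 in the fit of all 3 groups and 0 to 4788 with 1 replicate left out. With aPD1ab against young they were 3578, 766 with the 2-fold limit and 2369 to 3868 with 1 replicate left out. Signs turned for Fgfr2 with aPD1ab against IgG2a without aPD1ab replicate 1 (-0.060, against 0.25 without IgG2a replicate 1), and with aPD1ab against young for Fgfr4 and Fgf1 under limma voom (-0.027 and -0.023) and without aPD1ab replicate 2 (-0.20 and -0.18), with top values of 0.45 and 0.40 without aPD1ab replicate 3. The cause of these shifts was not tested. Fgfr4 rested on 60 to 83 counts in 3 libraries, and Lctl on 6 to 126, which limits their precision.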

Other observations

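Calls among markers of other cell types are set beside 9.05% of all genes called higher and 8.38% lower with IgG2a against young, and 12.4% and 9.97% with aPD1ab against young. Endothelial markers were lower with IgG2a against young in 6 of 7 (median log2 fold change -0.54) and with aPD1ab in 2 of 7. Of the mesangial, pericyte and smooth muscle markers 3 of 6 were lower than young in both aged groups, with summed levels of 241 to 338 CPM in young, 122 to 166 with IgG2a and 133 to 171 with aPD1ab. Parietal epithelial markers showed 1 higher and 2 lower of 5 with IgG2a and 1 higher with aPD1ab, loop of Henle markers 0 of 5 called by edgeR in any comparison with all libraries, collecting duct markers 1 of 6 higher with IgG2a and 2 higher with aPD1ab, fibroblast markers 1 of 4 higher with IgG2a and T and B cell markers 1 of 7 higher in each aged group. Without IgG2a replicate 1, 22.1% of all genes were called higher and 23.5% lower with IgG2a against young. Endothelial markers were then lower in 7 of 7, mesangial, pericyte and smooth muscle markers in 3 of 6 and loop of Henle markers in 2 of 5. Parietal epithelial markers were higher in 1 and lower in 3 of 5. Fibroblast markers were higher in 3 of 5, T and B cell markers in 4 of 7 and collecting duct markers in 0 of 6. Loop of Henle markers summed to 8150 CPM in aged IgG2a replicate 1, against 3910 to 7650 CPM in the other IgG2a and all young libraries.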
